A study of Mus musculus with 6 samples.

Results

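The levels of 8 abundant long noncoding RNAs (lncRNAs) of the brain were compared between control mice and mice that overexpress a human lncRNA. They are Meg3, Rian and Mirg of the imprinted Dlk1-Dio3 domain, Malat1 and Neat1 of the nuclear bodies, and Miat, Snhg11 and Peg13. They were taken by symbol and make up 8 of the 52390 rows of the gene table, and all 8 passed the filter on low counts that left 21844 genes to test. RNA of 3 AP1AR-DT OE mice and 3 control mice was sequenced. All were male C57BL/6 J wild-type mice. At 8 weeks of age they had received a recombinant adeno-associated virus (rAAV) into the medial prefrontal cortex (mPFC). In the AP1AR-DT OE group the virus carried the human lncRNA AP1AR-DT, labelled AC109347.1, behind the human synapsin promoter, which is active in neurons. The control virus was the same kind of vector without the insert. The RNA came from whole tissue, labelled only as brain, so that transduced and untransduced cells were read together. The paper's methods describe the tissue as cortical and its results as mPFC. In such samples fewer cells of a type and less RNA per cell cannot be told apart. AP1AR-DT is a human gene and has no row in the mouse table, so its level could not be checked in these counts. The overexpression libraries are called OE A, OE B and OE C, because their columns do not say which mouse each came from.

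The libraries did not hold the same tissue markers. Totals ran from 42061721 to 54668294 counts. Summed over 10 choroid plexus markers, control 3 reached 4047 CPM (normalized counts, with library sizes set by edgeR's TMM factors) against 60.7 to 83.4 in the other 5. Ttr, the main choroid plexus transcript, was at 3428 CPM there and at 1.06 to 5.43 elsewhere. The 10 thalamic markers summed to 1216 CPM in control 3 and to 206 to 387 in the others. The 10 hypothalamic markers summed to 662 CPM in control 2 and to 32.6 to 95.5 in the others, with the hypothalamic neuropeptide gene Oxt at 280.9 CPM. Slc17a7, a vesicular glutamate transporter of cortical excitatory neurons, ran from 3.86 CPM in control 2 to 463 CPM in OE B. The 13 oligodendrocyte markers summed to 11700 CPM in control 3 and to 5701 to 7253 CPM in the others. The 10 striatal markers ran from 407 CPM in control 2 to 2684 CPM in OE A, with all 10 above 0 in Log2FC and 0 called, also 0 at an unadjusted P under 0.05 and with DESeq2 or limma-voom. Without control 1, 9 of the 10 were called. The 12 pan-neuronal markers summed to 6053 to 7183 CPM in all 6 libraries. At the study's thresholds, P under 0.05 with |Log2FC| above 0.32, 6 of the 10 choroid plexus markers, 5 of the 10 thalamic and 4 of the 10 hypothalamic markers were called as lower in AP1AR-DT OE mice and 4 of 10 microglia markers as higher, and their part in the results was not tested. Without control 3 these calls numbered 0, 1, 2 and 5 in the same order. The microglia calls numbered 0 without control 2, without OE A, without OE B or after correction for GC content, and the choroid plexus calls 0 without OE A, without OE B or with limma-voom. The hypothalamic calls numbered 2 without control 2 and 0 with limma-voom, where the thalamic calls numbered 2. Of the 12 pan-neuronal markers 2 were called as higher and 1 as lower, and from 1 to 4 were called over the alternatives. Of the 13 oligodendrocyte markers 3 were called as lower (1 to 6 over the alternatives), and of 10 astrocyte markers 2 (1 to 2). Of 9 endothelial markers 2 were called as higher (1 to 3). Of 10 excitatory neuron markers 1 was called as lower (1 to 5), with 9 above 0 in Log2FC, and of 10 inhibitory neuron markers 0 were called (0 to 4). Among all genes tested 12.2% were called. Values of the 8 lncRNAs and counts of the gene lists described with them are given without control 2 or control 3 where leaving one out changed a call or a direction.

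Meg3, Rian and Mirg are transcribed in the same direction from the maternal chromosome, one after another, in the Dlk1-Dio3 imprinted domain. The protein-coding genes of the domain, Dlk1, Rtl1 and Dio3, are expressed from the paternal copy. Rian hosts many C/D box small nucleolar RNAs, and Mirg hosts part of one of the largest microRNA clusters of the mouse genome. Malat1 is a nuclear lncRNA of the splicing speckles, and Neat1, its neighbour, is the scaffold on which paraspeckles form. Miat, also called Gomafu, is a nuclear lncRNA of neurons that binds splicing factors. Snhg11 is a small nucleolar RNA host gene with strong neuronal expression. Peg13 is paternally expressed and lies in an intron of Trappc9.

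On GRCm38, in GENCODE vM21, Meg3 spans chr12:109541001-109571726, Rian chr12:109603940-109661716 and Mirg chr12:109729764-109749460, all on the plus strand. Malat1 spans chr19:5795690-5802672 and Neat1 chr19:5824708-5845478, both on the minus strand and each covered by exon over its whole span. Miat lies at chr5:112213228-112229395 and Peg13 at chr15:72805600-72810324, both on the minus strand, and Snhg11 at chr2:158375638-158386145 on the plus strand. The annotation classes Snhg11 as protein-coding, Peg13 as sense intronic, Rian as a processed transcript and the other 5 as lincRNA. Exons of Malat1, Meg3 and Miat overlap a gene on the opposite strand (Gm37376, Gm26906 and Gm26953). The library kit named in the labels does not mark strand, so reads of each pair cannot be told apart. Peg13 shares no exon with Trappc9, but intronic reads of Trappc9 precursors would fall on it.

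The microRNAs inside the 3 chr12 lncRNAs are shown because they are what these transcripts carry. RefSeq lists 26 mature microRNAs from 14 hairpins within the Mirg span, 6 from 3 hairpins within Rian and 3 from 2 hairpins within Meg3. These 35 mature sequences hold 34 different seeds, the bases 2 to 8 that pair with targets, so that a single pair shares one. That pair lies in Mirg. Below, in the RefSeq sequences on GRCm38.p6, the seed is in capitals, starting with the pair that shares it. miR-134-5p and miR-485-3p follow as microRNAs of Mirg known from neurons, then miR-154-5p and miR-410-3p of the same gene, and one each from Rian and Meg3.
miR-453, chr12:109735669-109735692: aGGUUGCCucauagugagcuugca
miR-496a-5p, chr12:109739132-109739152: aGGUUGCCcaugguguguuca
miR-134-5p, chr12:109734145-109734166: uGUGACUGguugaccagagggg
miR-485-3p, chr12:109734946-109734967: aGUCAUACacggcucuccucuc
miR-154-5p, chr12:109738438-109738459: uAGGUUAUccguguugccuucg
miR-410-3p, chr12:109743764-109743784: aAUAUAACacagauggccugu
miR-370-3p, in Rian, chr12:109618305-109618326: gCCUGCUGggguggaaccuggu
miR-770-5p, in Meg3, chr12:109563710-109563731: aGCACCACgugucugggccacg
Libraries of this kind do not capture mature microRNAs, and the table bears on the hosts only. Of the 14 small RNA rows within Mirg the highest count in any library was 15 (Mir3072), and none passed the filter on low counts.

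Promoter windows, 250 bases before to 50 after a RefSeq start, were held for Meg3, Rian, Mirg, Malat1, Miat and Snhg11. They were searched on both strands for the cAMP response element TGACGTCA, the TATA box TATAAA, the CCAAT box CCAAT, the GC box GGGCGG and TGCGCA, the core of the site of NRF1, the transcription factor that the study followed. The Meg3 window is shown because it alone held the first 2 of these, with a CCAAT box. In it the capitals mark the matches, with TATAAA and its reverse complement overlapping. It lies at chr12:109540746-109541045 on the plus strand of GRCm38.p6.
Meg3 window: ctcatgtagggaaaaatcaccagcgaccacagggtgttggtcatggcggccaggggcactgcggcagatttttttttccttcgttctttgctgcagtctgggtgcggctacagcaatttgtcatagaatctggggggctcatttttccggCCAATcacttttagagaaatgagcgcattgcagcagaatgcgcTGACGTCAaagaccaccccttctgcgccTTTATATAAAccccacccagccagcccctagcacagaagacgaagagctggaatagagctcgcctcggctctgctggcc
Of all 32851 windows, 1.79% hold TGACGTCA, 13.6% TATAAA and 37.4% CCAAT. The window of Rian held none of the 5 motifs, nor did that of Malat1 or of a second Meg3 start, and that of Miat held 1 GC box, which 35.7% of all windows hold. That of Mirg held 1 CCAAT box. The Snhg11 window, chr2:158375463-158375762 on the plus strand, is shown because it held TGCGCA at 2 places, in capitals, a motif found in 7.76% of all windows.
Snhg11 window: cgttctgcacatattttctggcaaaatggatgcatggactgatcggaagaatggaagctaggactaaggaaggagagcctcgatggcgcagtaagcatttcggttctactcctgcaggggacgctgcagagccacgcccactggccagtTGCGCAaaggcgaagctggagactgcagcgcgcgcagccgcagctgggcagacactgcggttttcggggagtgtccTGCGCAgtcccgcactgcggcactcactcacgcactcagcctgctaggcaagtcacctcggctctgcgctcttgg
The RefSeq start of Mirg lies 5217 bases inside the GENCODE gene, and its window, chr12:109734731-109735030, is shown because it is itself made up in part of microRNA sequence. The capitals mark, in this order, the bases of miR-668-5p, miR-668-3p and miR-485-3p.
Mirg window: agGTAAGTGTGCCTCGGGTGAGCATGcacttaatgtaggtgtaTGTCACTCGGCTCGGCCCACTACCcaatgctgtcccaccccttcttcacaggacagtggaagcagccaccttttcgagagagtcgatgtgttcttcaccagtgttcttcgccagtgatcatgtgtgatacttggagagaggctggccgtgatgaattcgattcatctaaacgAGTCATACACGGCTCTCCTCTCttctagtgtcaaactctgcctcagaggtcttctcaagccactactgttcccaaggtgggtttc
A match of letters is a description of the window and not a measured binding site.

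Together the 8 lncRNAs took 0.374% to 0.609% of all counts, and 27.1% to 36.3% of the counts of the 2399 rows tested that are annotated as long noncoding or belong to the 8. Meg3 alone took 12.1% to 17.9% of these. Per kilobase of exon, Meg3 was the highest of the 8, at 129 ± 35.0 CPM per kb in the control mice and 145 ± 18.5 in the AP1AR-DT OE mice (SD, n = 3 each). Snhg11 stood at 123 ± 43.0 and 131 ± 12.3, and Peg13 at 90.6 ± 5.42 and 98.8 ± 10.2 on the same scale. The ranges of these 3 over the 6 libraries overlapped, and they held ranks 4, 5 and 6 among the 2399 long noncoding rows. Malat1 came next at 45.0 ± 3.09 and 39.6 ± 9.21 CPM per kb, rank 13. Its lowest library, at 29.1, was just above the highest of Rian, at 28.9. Rian, with means of 24.6 and 23.3, and Miat, with 18.6 and 20.2, overlapped and held ranks 21 and 23. The name abundant did not hold for the last 2 per kilobase: Neat1 reached 4.45 ± 2.88 and 3.78 ± 0.432 CPM per kb, rank 171, and Mirg 1.56 ± 0.374 and 2.25 ± 0.367, rank 404. The kit selects RNA with a poly(A) tail, and Malat1 and the long isoform of Neat1 end without a conventional one, so both levels may be understated against the other 6. That was not tested.

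**Figure D1:**
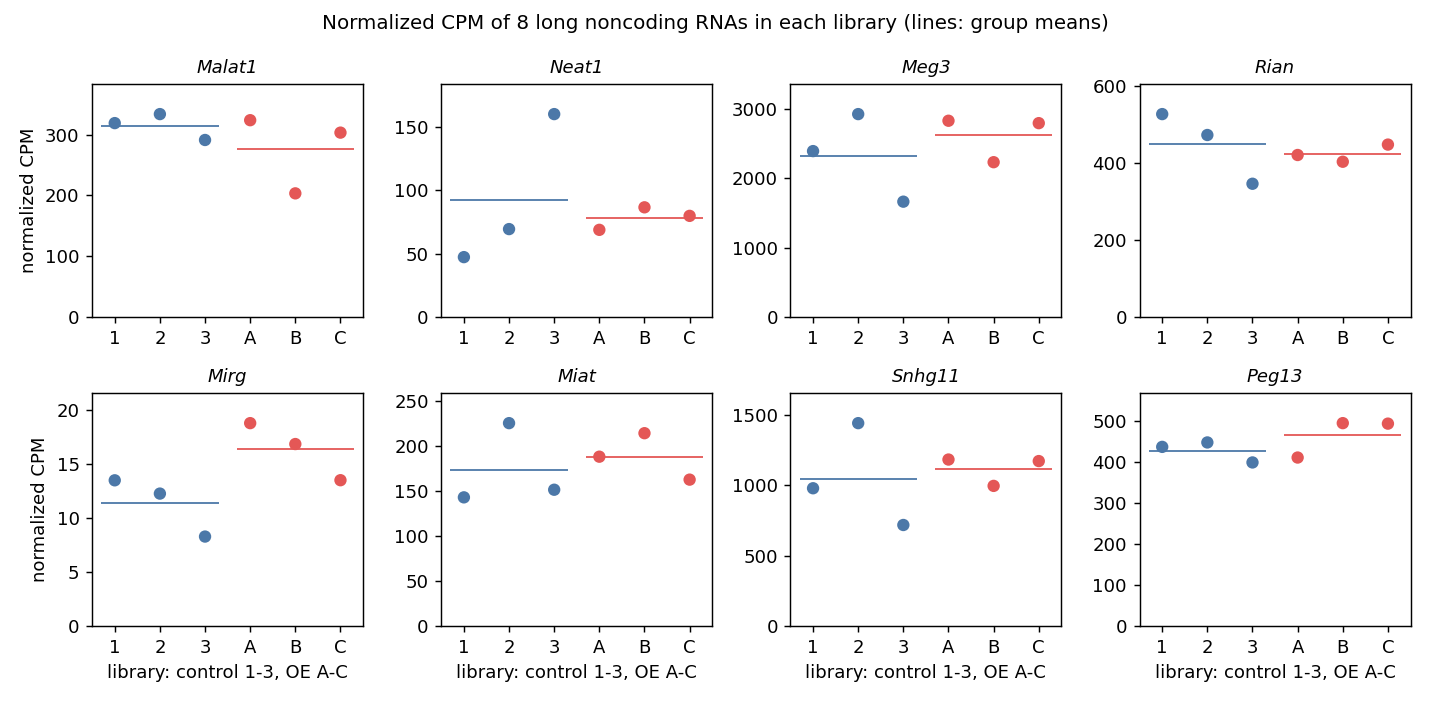
Normalized CPM (counts scaled to a common total, linear axis from 0) of each lncRNA in the 3 control libraries (blue, 1 to 3) and the 3 AP1AR-DT OE libraries (red, A to C), with lines at the group means. Only Mirg has its groups apart, by 13.52 against 13.53 CPM, and control 3 holds the lowest Meg3, Rian, Mirg, Snhg11 and Peg13 and the highest Neat1.

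The first comparison asked which of the 8 differed between AP1AR-DT OE and control mice. One did at the thresholds of the study: Mirg was higher in AP1AR-DT OE mice, with a log2 fold change (Log2FC) of 0.53 ± 0.218 (SE) in edgeR's quasi-likelihood test. Among all 21844 genes 12.2% were called at these thresholds and 5.1% were called as higher, so 1 of 8 was a share near that of all genes. After Benjamini-Hochberg adjustment over all genes 0.0275% of the genes passed, and none of the 8 did, with adjusted P from 0.323 for Mirg to 0.873 for Snhg11. By unadjusted P under 0.05 Mirg alone passed with edgeR, and DESeq2 and limma-voom also called Mirg alone. The other 7 had Log2FC between -0.23 and 0.17. The study's thresholds called 6.09% of the 2399 long noncoding rows (55 higher, 91 lower) and 13.5% of the 15566 protein-coding rows. The classes were not matched for count level, on which calling depends, and the difference between these shares was not tested.

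Mirg stood at 13.52, 12.29 and 8.31 CPM in control 1, 2 and 3 and at 18.8, 16.9 and 13.53 CPM in OE A, OE B and OE C. The groups did not overlap, but only just, since control 1 and OE C were level. Groups that do not overlap were found for 22.4% of all genes tested. The means were 11.4 ± 2.72 and 16.4 ± 2.67 CPM (SD, n = 3 each), a 1.44-fold difference with a 95% interval of 0.02 to 1.04 in Log2FC (edgeR P = 0.0449, adjusted P = 0.323, and exact permutation P = 0.1). That exact P, two-sided, is the smallest that 3 against 3 allows. Counts behind these values were 415 to 612 in the control and 710 to 998 in the AP1AR-DT OE libraries. The call was lost in edgeR's test without control 2 (Log2FC 0.60), control 3 (0.36), OE A (0.42) or OE B (0.51), with adjusted P from 0.434 to 0.661. It was lost as well after correction for GC content (0.45, adjusted P = 0.573). Without both control 2 and control 3 the Log2FC was 0.28 (adjusted P = 0.725). Mirg was above 0 in these and in all other alternatives tried, with adjusted P from 0.196 to 0.661 over the 15 that change 1 choice or leave out 1 library.

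Meg3 was measured at 2392, 2925 and 1664 CPM in control 1, 2 and 3, and at 2829, 2232 and 2795 CPM in OE A, OE B and OE C. The groups overlapped, and control 3 was the lowest of the 6. The Log2FC was 0.17 ± 0.214 (SE), with a 95% interval from -0.34 to 0.68 (P = 0.453, edgeR; exact permutation P = 0.7). Without control 3 it was -0.008, and without control 2 it was 0.38 (adjusted P = 0.500, edgeR).

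Rian was at 527, 473 and 346 CPM in the control libraries and at 421, 404 and 448 CPM in the AP1AR-DT OE libraries. The AP1AR-DT OE values all lay inside the control range. The Log2FC was -0.08 ± 0.157, with an interval from -0.45 to 0.29 (P = 0.620, edgeR; exact permutation P = 0.8). It turned to 0.29 (adjusted P = 0.609) after correction for GC content, to 0.036 after correction for transcript length and to 0.052 without control 1. Of the 8, Rian had the lowest GC content in its longest transcript, 35.8%, and Miat the highest, 55.1%.

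**Figure D2:**
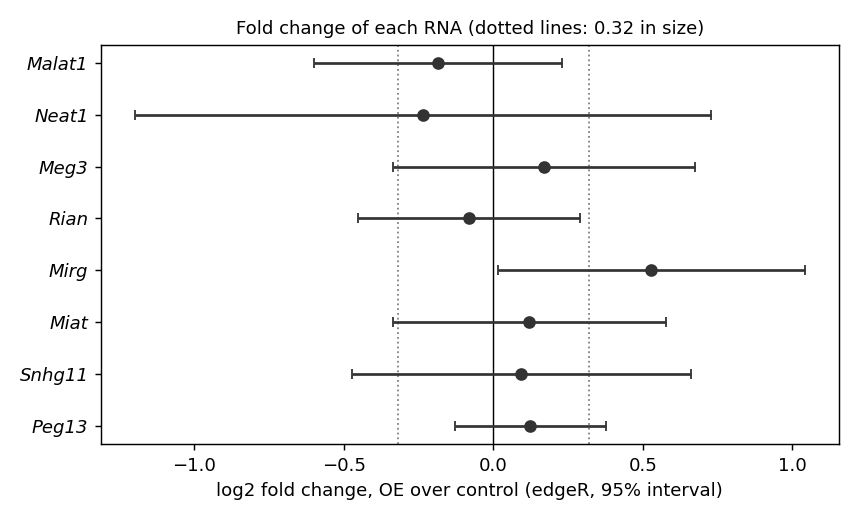
Log2 fold change of each lncRNA, AP1AR-DT OE over control, as edgeR's estimate (points) with its 95% interval (bars), and dotted lines at 0.32 in either direction. The interval of Mirg, 0.02 to 1.04, leaves out 0, and the other 7 intervals hold it.

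The 3 lncRNAs of the domain were then set against each other within each library, where the scaling between libraries drops out. Mirg counts were 2.56%, 2.60% and 2.40% of the Rian counts in control 1, 2 and 3, and 4.47%, 4.18% and 3.02% in OE A, OE B and OE C. All 3 AP1AR-DT OE libraries lay above all controls, whose values were close together. The difference in the log2 ratio was 0.61 (control mean -5.31 ± 0.0620, AP1AR-DT OE mean -4.71 ± 0.303, SD, n = 3 each). The exact permutation test gave P = 0.1, two-sided, the smallest that 3 against 3 can give, and 0.4 adjusted over the 4 ratios tested. With the fold changes corrected for GC content the difference fell to 0.16.

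The other ratios overlapped between the groups. Rian counts were 22.0%, 16.2% and 20.8% of the Meg3 counts in the controls and 14.9%, 18.1% and 16.0% in the AP1AR-DT OE libraries (log2 difference -0.26, exact permutation P = 0.2). Corrected for GC content this difference was 0.12. Mirg counts were 0.565%, 0.420% and 0.499% of Meg3 in the controls and 0.665%, 0.756% and 0.484% in the AP1AR-DT OE libraries (log2 difference 0.35, exact permutation P = 0.3).

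**Figure D3:**
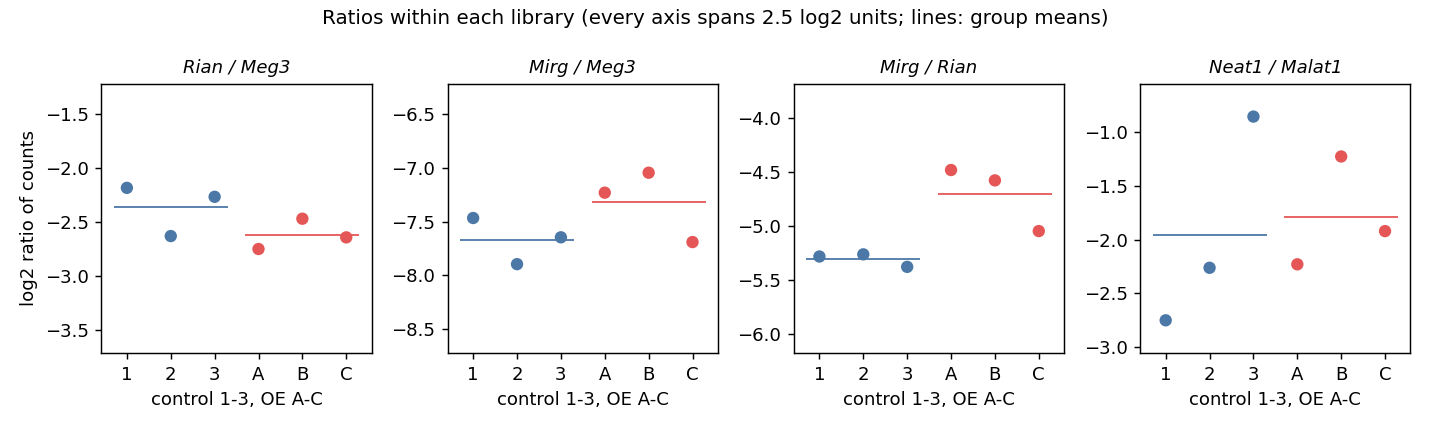
Log2 ratio of the counts of 2 lncRNAs within each library, for control 1 to 3 (blue) and OE A to C (red), with lines at the group means and axes of equal span. Mirg over Rian is the ratio whose groups are apart, from -5.38 to -5.27 in the controls and from -5.05 to -4.48 in the AP1AR-DT OE libraries.

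The genes around these lncRNAs were described next. Of 12 other genes of the domain and its flanks, 4 were called as higher and 0 as lower, beside 12.2% called among all genes. The 12 had a median Log2FC of 0.28 beside -0.01 over all genes. All 4 lie upstream of Dlk1, outside the imprinted lncRNAs. Slc25a29, a mitochondrial carrier of basic amino acids, was at 15.2 to 15.9 CPM in the controls and 20.3 to 22.7 CPM in the AP1AR-DT OE libraries (Log2FC 0.47, edgeR P = 0.00283, exact permutation P = 0.1). Begain, a postsynaptic density protein, had Log2FC 0.40 (edgeR P = 0.0283, exact permutation P = 0.2). Degs2, a sphingolipid desaturase, had 1.45 at 0.360 to 3.52 CPM, and Wdr25 had 0.33. The adjusted P of these 4 ran from 0.295 to 0.329. After correction for GC content 0 of the 12 were called, 3 without control 2, 1 without control 3, 1 without OE B and 2 without OE A. The imprinted coding genes were not called: Dlk1, a Notch ligand family protein, had Log2FC -0.35 ± 0.505, Rtl1, a retrotransposon-derived gene, -0.14 ± 0.411 and Dio3, a thyroid hormone deiodinase, 0.61 ± 0.512 (SE). Dlk1 ran from 88.3 CPM in control 3 to 348 CPM in control 2, a wider range than that of the AP1AR-DT OE libraries, 107 to 258 CPM. Without control 2 Dlk1 turned to 0.16 and Rtl1 to 0.25 (edgeR adjusted P = 0.912 and 0.826). Without control 1 Dio3 was at 1.38 and was called (edgeR adjusted P = 0.234). Over the 2 Mb centred on the Meg3 start, with small RNA rows left out, 25 genes were tested and 6 were called. All 6 were higher, and the median over the 25 was 0.15. Of the 25, Mirg was the 1 gene called between Dlk1 and Dio3.

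**Figure D4:**
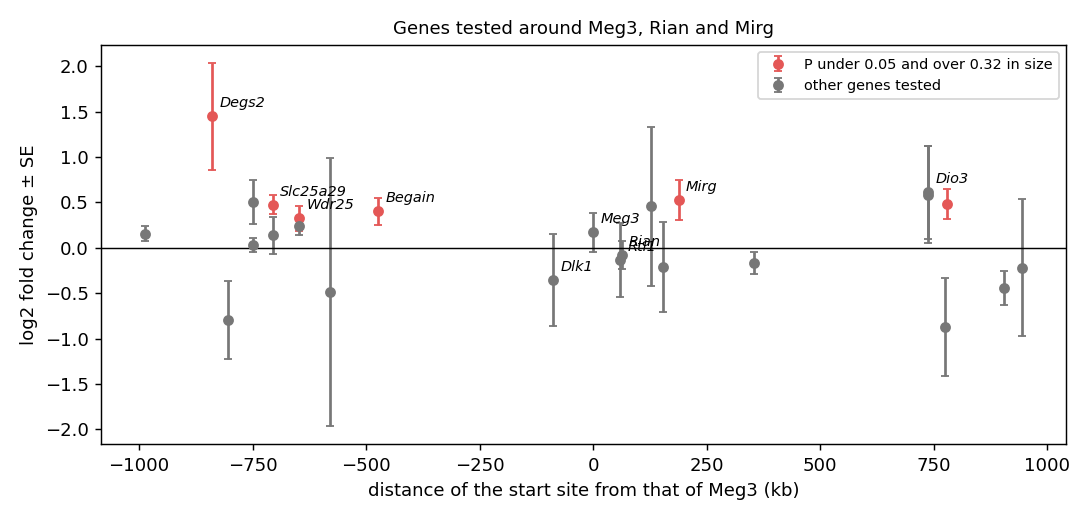
Log2 fold change with its SE for the 25 genes tested within 1000 kb of the Meg3 start, small RNA rows left out. The values are set against the distance of the start sites from it, with the called genes in red. Mirg, at 188.8 kb, is called, while Meg3, Rian, Dlk1, Rtl1 and Dio3 are not.

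Malat1 was at 319, 334 and 291 CPM in control 1, 2 and 3 and at 324, 203 and 303 CPM in OE A, OE B and OE C. OE B was the lowest of the 6 and the groups overlapped. The Log2FC was -0.18 ± 0.175, with an interval from -0.60 to 0.23 (P = 0.327, edgeR; exact permutation P = 0.6). It was -0.004 without OE B and 0.018 after correction for GC content.

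Neat1 was at 47.4, 69.5 and 160 CPM in the control libraries and at 69.0, 86.7 and 80.0 CPM in the AP1AR-DT OE libraries. Control 3, the library with the choroid plexus and thalamic markers and the highest oligodendrocyte markers, held 3.38 times the level of control 1, and the 3 AP1AR-DT OE values lay between. The Log2FC was -0.23 ± 0.409 over all libraries, with an interval from -1.20 to 0.73 (P = 0.584, edgeR; exact permutation P = 0.9). Without control 3 it turned to 0.44 (adjusted P = 0.404, edgeR). Without control 2 and control 3 it was 0.73 (adjusted P = 0.606) and passed the study's thresholds, where the 1 control library left is assumed to vary like the others. The part of the other cell types in this was not tested. The ratio of Neat1 to Malat1 counts ran from 14.9% to 55.1% in the controls and from 21.3% to 42.6% in the AP1AR-DT OE libraries (log2 difference 0.16, exact permutation P = 0.8).

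Around Malat1 and Neat1, 0 of 12 neighbouring genes were called by edgeR, 0 had an unadjusted P under 0.05, and DESeq2 and limma-voom called 0. Their neighbour Frmd8 had Log2FC -0.07 ± 0.184 (SE) and ran from 33.5 to 53.1 CPM in the controls and from 36.1 to 44.0 CPM in the AP1AR-DT OE libraries. Of 22 paraspeckle proteins, 2 were called as lower and 0 as higher, beside 12.2% called among all genes, and the median was -0.12. Without control 3 there were 4, without OE A or OE C 3, and after correction for GC content 1. Matr3, an RNA-binding nuclear matrix protein, was at 292 to 340 CPM in the controls and 209 to 261 CPM in the AP1AR-DT OE libraries. Its Log2FC was -0.47 ± 0.114 (edgeR P = 0.00423, adjusted P = 0.295, and 0.0447 adjusted in DESeq2, exact permutation P = 0.1). Zc3h6, a zinc finger protein, had Log2FC -0.52 ± 0.136 (edgeR P = 0.00605, adjusted P = 0.295, exact permutation P = 0.1). After correction for GC content Zc3h6 was still called and Matr3 was not. The core paraspeckle proteins Nono (-0.15), Sfpq (-0.02) and Pspc1 (-0.21) were not called. Of 24 nuclear speckle and splicing proteins, 2 were called as higher and 0 as lower, beside the same 12.2%, with a median of -0.03. The splicing factor Srsf6 had Log2FC 0.45 ± 0.158 (edgeR P = 0.0251, adjusted P = 0.296, exact permutation P = 0.1). Rbfox3, the neuronal splicing factor NeuN, had 0.40 ± 0.163 (edgeR P = 0.0419, adjusted P = 0.319, exact permutation P = 0.2). It had 0.19 after correction for GC content, where it was not called. Of the 24 proteins 0 were called without control 2 or without OE B, and 1, Srsf6, without control 3.

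Miat was at 143, 225 and 151 CPM in the control libraries and at 188, 214 and 162 CPM in the AP1AR-DT OE libraries. The highest library was control 2, the one with the hypothalamic markers, and the groups overlapped. The Log2FC was 0.12 ± 0.194, with an interval from -0.34 to 0.58 (P = 0.554, edgeR; exact permutation P = 0.6). Without control 2 it was 0.36 (adjusted P = 0.449, edgeR) and passed the study's thresholds. It was -0.03 after correction for GC content. Of the splicing factors that Miat is known to bind or act on, Srsf1 (-0.18), Qk (-0.80, adjusted P = 0.399) and Celf3 (0.38, adjusted P = 0.331) were not called by edgeR. Celf3 lay at the edge, with edgeR P = 0.0503 beside an exact permutation P of 0.3, and was called in 8 of the 15 alternatives. Qk was called in 2 of the 15, without OE A and without OE C. Qk was at 365 to 495 CPM in the controls and at 97.3, 294 and 344 CPM in OE A, OE B and OE C, without overlap.

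Snhg11 was at 980, 1442 and 719 CPM in the control libraries and at 1184, 997 and 1173 CPM in the AP1AR-DT OE libraries. Control 2 was the highest and control 3 the lowest of all 6. The Log2FC was 0.09 ± 0.241, with an interval from -0.47 to 0.66 (P = 0.707, edgeR; exact permutation P = 0.7). It was -0.10 without control 3 and 0.41 without control 2 (adjusted P = 0.460, edgeR). Of 14 genes tested beside Miat and Snhg11, 4 were called as higher and 0 as lower, beside 12.2% called among all genes, with a median of 0.16. The count was 3 without control 2 and 1 after correction for GC content. It was 2 without control 3, without OE A, without OE B or after correction for transcript length. Hps4, a subunit of a lysosome-related organelle complex, rose the most of these (Log2FC 0.57 ± 0.146, edgeR P = 0.00590, adjusted P = 0.295, exact permutation P = 0.1). Hps4 passed the thresholds in all 15 of those alternatives. Asphd2 (0.42), Actr5, a chromatin remodelling subunit (0.38), and Tpst2, a tyrosine sulfotransferase (0.33), lost the call after correction for GC content. In this order they were called in 14, 9 and 5 of the 15 alternatives, with edgeR adjusted P from 0.295 to 0.329.

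Peg13 was at 437, 448 and 399 CPM in the control libraries and at 411, 495 and 494 CPM in the AP1AR-DT OE libraries. It varied the least of the 8, and the groups overlapped through OE A. The Log2FC was 0.12 ± 0.107, with an interval from -0.13 to 0.38 (P = 0.283, edgeR; exact permutation P = 0.3), and stayed between 0.06 and 0.21 in the 15 alternatives. Of 6 genes of its domain, 0 were called by edgeR, 0 had an unadjusted P under 0.05, and DESeq2 and limma-voom called 0. Trappc9, its host, was at 72.0 to 85.9 CPM in the controls and 74.1 to 78.5 CPM in the AP1AR-DT OE libraries (Log2FC -0.05 ± 0.0956). Kcnk9, an imprinted potassium channel, ran from 63.5 to 154 CPM in the controls and had Log2FC -0.04 ± 0.327 (SE). Its highest library was control 2, and without it Kcnk9 turned to 0.47 (adjusted P = 0.449, edgeR) and was called, the 1 call among the 6 genes there.

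The 8 lncRNAs differed in how far replicates spread. The SD of log2 CPM within groups was 0.125 for Peg13, 0.229 for Rian, 0.266 for Malat1, 0.289 for Miat, 0.314 for Mirg, 0.322 for Meg3, 0.369 for Snhg11 and 0.646 for Neat1. Over the 9990 genes tested with at least the mean CPM of Mirg the median was 0.153. All but Peg13 therefore spread more than most of these genes, which were not matched to each lncRNA in level. Of these genes 75.9% had a smaller SD than Rian, 96.6% a smaller one than Neat1, and 34.9% a smaller one than Peg13.

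The likeness of the profiles over the 6 libraries was described with Pearson's r of log2 CPM among 6277 other genes. These libraries share the tissue differences given above, and no test was made. Meg3 and Snhg11 were the most alike of the 8, with r = 0.960, where Snhg11 ranked 6 of 6277 for Meg3 and Meg3 14 for Snhg11. Both were highest in control 2 and lowest in control 3. Within the domain Meg3 had r = 0.680 with Rian and 0.653 with Mirg, and Rian had 0.369 with Mirg. Neat1 ran against Rian, with r = -0.944, and Malat1 had r = -0.302 with its neighbour Neat1. The genes most alike to each were Vdac3-ps1 and Vps39 for Meg3, Ago1 and Gda for Rian, Tmem201 and Tatdn2 for Mirg, Ppm1g and Pnma2 for Malat1, and Pacs2 and Desi1 for Neat1. They were Nenf and Rpl17-ps10 for Miat, Ptpro and 6330403K07Rik for Snhg11, and Supt5 and Cds2 for Peg13, all with r between 0.971 and 0.997. The 2 highest r of 6277 over only 6 libraries are high through the choice itself, so no shared regulation can be read from these pairs.

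The 8 were last set beside other lncRNAs and imprinted genes. Of 36 other lncRNAs tested, 3 were called as higher and 3 as lower, beside 12.2% called among all genes, with a median Log2FC of 0.14. The total called of the 36 ran from 3 after correction for transcript length to 11 without control 1, and was 4 without control 2 or without control 3. Mir124a-1hg, the host gene of a neuronal microRNA, was at 62.7 to 78.9 CPM in the controls and 91.4 to 117 CPM in the AP1AR-DT OE libraries. Its Log2FC was 0.57 ± 0.137 (edgeR P = 0.00424, adjusted P = 0.295, and 0.0314 adjusted in DESeq2, exact permutation P = 0.1). Mir9-3hg had 0.55 ± 0.139 (edgeR P = 0.00532, adjusted P = 0.295, exact permutation P = 0.1). Both passed the thresholds in all 15 alternatives, and Mirg in 10 of 15. With control 2 and control 3 both left out, which is not among the 15, both lost the call. Mir124a-1hg was at 0.37 there and Mir9-3hg at 0.48. Among the lower were Kcnq1ot1, the antisense lncRNA of another imprinted domain (-0.61 ± 0.205), and Tug1 (-0.37 ± 0.128), with edgeR's SE and adjusted P of 0.295 and 0.296. Each was called in 10 of the 15 alternatives, and after correction for GC content neither was, with Log2FC of -0.36 for Kcnq1ot1 and -0.053 for Tug1. Of 32 imprinted protein-coding genes, 0 were called by edgeR, with 25 below 0 and a median of -0.27. None had an unadjusted P under 0.05 with edgeR, limma-voom called 0 and DESeq2 called 4. Without control 3 there were 6 with edgeR, without OE C 5, without control 1 3 and without control 2 2.

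**Figure D5:**
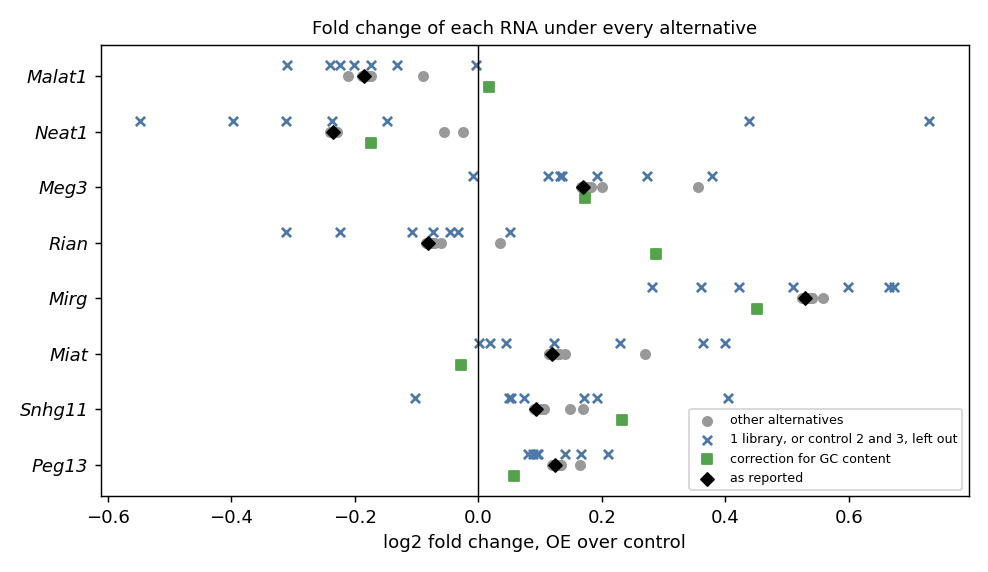
Log2 fold change of each lncRNA as reported (black), with 1 library or control 2 and 3 left out (blue crosses), after correction for GC content (green) and under the other alternatives (grey). Mirg and Peg13 stay above 0 throughout, and Neat1 ranges from -0.55 to 0.73.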

How the data were processed

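RNA-seq counts of 3 AP1AR-DT OE and 3 control mice were used. Per the paper's methods the authors checked reads with FastQC, aligned them to GRCm38 with Bowtie2, which does not split reads at introns, and took counts from StringTie with GENCODE genes; the submitters' processing notes instead name mm9, TopHat2 2.0.4, HTSeq and edgeR 2.6.12. The authors deposited whole-number counts without normalization, used here. In the same table they deposited a mean normalized signal, log2 fold changes with standard errors, a test score and P-values, p-value adjusted included, from their own fit, which were not used. Start and end in the table equal those of GENCODE vM21 for 1546 of 52133 matched genes and the span length for 51554, so coordinates are from vM21.

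Genes were tested in R 4.3.3 with edgeR 4.0.16 (filterByExpr, TMM, two-sided quasi-likelihood F-test, Benjamini-Hochberg adjustment over 21844 genes), with the study's thresholds (|Log2FC| above 0.32, P under 0.05). Alternatives were DESeq2 1.42.0, limma-voom (limma 3.58.1), other scalings and filters, offsets for GC content and transcript length (natural splines, 5 degrees of freedom), and leaving out libraries. The edgeR common biological coefficient of variation was 0.313. On simulated counts for AP1AR-DT OE against control, with 200 genes changed, edgeR recovered 86.5% among 21260 genes. The changed genes had a median |Log2FC| of 0.999, and 970 unchanged genes were called too. Recovery of changes as small as those of the lncRNAs compared here was not tested. Single genes and ratios had exact permutation tests in scipy 1.17.1. Figures were made with matplotlib 3.10.9.

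The members and gene lists were chosen with earlier results of these data known. The genes named are the 8, up to 4 called genes of each list by smallest P, 14 genes fixed by locus or function, and the 2 most alike to each. A gene that this rule names is not reported here. Each library is labelled as a separate mouse.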

Additional observations from a re-analysis of the deposited data

How the results depend on the processing

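At the study's thresholds 2675 genes were called, 1567 after correction for GC content, and from 1430 to 3508 with 1 library left out (1430 without OE B, 1620 without OE A); DESeq2 called 308 genes at an adjusted P under 0.05 and edgeR 6. Of the 8 lncRNAs 1 was called, and 0 after correction for GC content, with 0 to 1 when 1 library was left out. The Log2FC of Mirg, 0.53, no longer passed the thresholds after correction for GC content (0.45), without both control 2 and control 3 (0.28, chosen after seeing the data) and in 4 of 6 cases with 1 library left out, with a range from 0.36 to 0.67. With 1 library left out, that of Malat1 ran from -0.31 to -0.004, of Neat1 from -0.55 to 0.44, of Meg3 from -0.008 to 0.38, of Rian from -0.22 to 0.052, of Miat from 0.001 to 0.36, of Snhg11 from -0.10 to 0.40 and of Peg13 from 0.08 to 0.21. Correction for GC content turned Malat1 to 0.018, Rian to 0.29 and Miat to -0.028, correction for transcript length turned Rian to 0.036, and Neat1 was at 0.73 without control 2 and control 3. The log2 ratio of Neat1 to Malat1 differed by 0.16, by -0.19 after correction for GC content, chosen after seeing the data, and by -0.23 to 0.71 with 1 library left out. The ratio of Rian to Meg3 turned from -0.26 to 0.12 under that correction and ran from -0.40 to -0.17 with 1 library left out. The ratios of Mirg to Rian (0.50 to 0.78) and of Mirg to Meg3 (0.21 to 0.53) stayed above 0 there. The cause was not tested. No paired analysis was possible because the control mice and the AP1AR-DT OE mice share too few replicate numbers in the labels and the AP1AR-DT OE columns do not name the mouse. With 3 mice a group, the standard errors of 0.107 to 0.409 limit which Log2FC of the 8 lncRNAs could pass.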
